A study of Mus musculus with 14 samples.

Results

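The 10 genes of glutathione synthesis and of the NRF2 response were followed in hippocampal RNA of 7 mice labelled LPAR2-/- and 7 wild-type (WT) mice. They were chosen by name, as rows of the deposited count table, and are 10 of its 24421 genes: Gclc, Gclm and Gss, which build glutathione, Slc7a11, which imports cystine for it, Gsr, which recycles it, Gpx4, which spends it, Txnrd1 and Srxn1 of the thioredoxin and peroxiredoxin branch, Nqo1, which reduces quinones, and Nfe2l2, which encodes the transcription factor NRF2. The study asked how loss of the lysophosphatidic acid receptor LPAR2 changes hippocampal function and transcription. All 14 mice were naive males with the strain given as 129.C57Bl6, and each contributed 1 library of total RNA from which ribosomal RNA had been depleted. According to the methods, the allele is a partial deletion within exon 2 of Lpar2. The knockouts came from a line bred only from homozygotes and the WT mice from another colony (C57BL/6 mixed with 129/SvJ), so that genotype and colony background cannot be told apart. Their age is 10 to 12 weeks in the labels, but the series design calls the animals middle aged to aged. The labels and the study's methods name the hippocampus as the tissue, and its results name the dentate gyrus.

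Glutathione is made in 2 steps. Glutamate-cysteine ligase, a catalytic subunit (Gclc) with a modifier subunit (Gclm), joins glutamate to cysteine, and glutathione synthetase (Gss) adds glycine. Peroxidases oxidise the product, and glutathione reductase (Gsr) returns it to its reduced form with NADPH. The factor NRF2 is held back by KEAP1 and degraded in resting cells. Under oxidative or electrophilic stress it accumulates, pairs with small MAF proteins on antioxidant response elements and raises transcription of most of the genes followed here. In the brain these genes are best known from astrocytes, which supply neurons with glutathione precursors.

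Sequence upstream of the transcription start was available from RefSeq (GRCm38.p6, 250 bases before to 50 bases after each start) for 8 of the 10 genes, not for Gsr and Gclc. It was searched on both strands for TGACNNNGC and TGAGNNNGC, the core letters of the antioxidant response element. At least 1 match stood in 5 of the 13 windows of these genes, those of Gclm, Slc7a11, Txnrd1, Srxn1 and Nfe2l2. Among all 32851 windows of the RefSeq table, 27.8% held a match, 12.4% for TGACNNNGC and 17.6% for TGAGNNNGC. The 250 bases upstream of Srxn1 and of Gss are shown because these are the genes with sequence in the table whose RNA passed the test below, in opposite directions. Capitals mark motif matches, and each sequence reads 5′ to 3′ on the strand of its gene. Srxn1 lies on the plus strand (chr2:152105274-152105523) and Gss on the minus strand (chr2:155592811-155593060).
Srxn1: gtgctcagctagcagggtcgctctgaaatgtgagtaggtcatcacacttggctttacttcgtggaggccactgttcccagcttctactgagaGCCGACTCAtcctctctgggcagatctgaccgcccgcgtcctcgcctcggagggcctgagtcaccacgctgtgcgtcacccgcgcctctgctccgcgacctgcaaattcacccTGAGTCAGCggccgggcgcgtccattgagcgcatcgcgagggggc
Gss: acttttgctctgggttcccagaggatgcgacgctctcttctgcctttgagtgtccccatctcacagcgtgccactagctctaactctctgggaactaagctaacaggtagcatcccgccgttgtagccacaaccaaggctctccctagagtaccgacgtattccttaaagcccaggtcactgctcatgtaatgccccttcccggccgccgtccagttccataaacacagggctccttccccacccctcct
The Srxn1 sequence held matches at −158 to −150 and −45 to −37, and a further match lay at 29 to 37 past the start. The match at −45 also holds the letters TGANTCA, the AP-1 motif. No match stood in these letters of Gss, in any of the 4 windows of Gpx4 or in that of Nqo1. Single matches of the remaining genes are shown with 10 flanking bases on each side, for comparison with Srxn1 (Gclm chr3:122245413-122245441, plus strand, Slc7a11 chr3:50443692-50443720, minus strand, Txnrd1 chr10:82859104-82859132, plus strand, Nfe2l2 chr2:75704885-75704913, minus strand).
Gclm: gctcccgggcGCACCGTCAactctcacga
Slc7a11: taatgttggcGCTTTCTCAagctggagtt
Txnrd1: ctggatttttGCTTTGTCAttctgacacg
Nfe2l2: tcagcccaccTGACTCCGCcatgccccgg
A match is a run of letters and says nothing on whether NRF2 was bound in these mice.

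Between 15434620 and 23258949 reads were counted on genes in each library labelled LPAR2-/- and between 16373410 and 21992980 in each WT library (exact two-sided permutation test, p = 0.893). Of the 24421 genes, 14897 passed the filter on low counts, all 10 members among them. Lpar2 was higher in the libraries labelled LPAR2-/-, with 9.55 ± 1.41 CPM (counts scaled to a common library size, SD, n = 7) there and 2.36 ± 0.676 in WT (log2 fold change 2.01, standard error or SE 0.157, adjusted p = 8.22e-07 from edgeR). These counts are per gene and do not separate transcripts with and without the deleted part of exon 2, so they do not check the labels, and every direction below refers to the label. Astrocyte markers were present in every library (5080 to 5930 summed CPM in mice labelled LPAR2-/- and 5270 to 6050 in WT), as were dentate gyrus markers (553 to 855 and 553 to 803). Single libraries stood out in other lists. Choroid plexus markers reached 297 CPM in mouse 2 labelled LPAR2-/- against at most 37.5 in WT, and oligodendrocyte markers reached 4120 CPM in mouse 3 labelled LPAR2-/- against at most 2140 in WT. Markers of CA1 and CA3 were at 270 and 251 CPM in mice 6 and 7 labelled LPAR2-/- against at least 366 in WT, and these mice were the highest for dentate gyrus markers and the lowest of their group for Srxn1 and Gpx4. With both left out, an alternative chosen after seeing the data, Gsr (0.61, adjusted p = 0.00157) and Srxn1 (−0.23, adjusted p = 0.0241) still passed in edgeR and Gss did not (0.35, adjusted p = 0.062). In bulk RNA, fewer cells of a type and less RNA per cell cannot be told apart.

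The 3 members that passed the test did not move together. Gsr rose by 48.4% and Gss by 26.5%, Srxn1 fell by 17.5%, and the other 7 members did not pass. The counts were therefore 2 of 10 higher, beside 3.32% of all genes tested, and 1 of 10 lower, beside 3.46%. In either direction, 6.77% of genes passed, 1009 of 14897 at a Benjamini-Hochberg adjusted p under 0.05 in edgeR. The median log2 fold change of the 10 members was 0.00, as for all genes tested (0.0029). Without the pair on chromosome 8, Gsr and Nqo1, 1 of 8 members was higher and 1 lower, with a median of −0.01. The groups were apart in range for Gsr and Srxn1, as for 1.77% of genes tested.

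**Figure D1:**
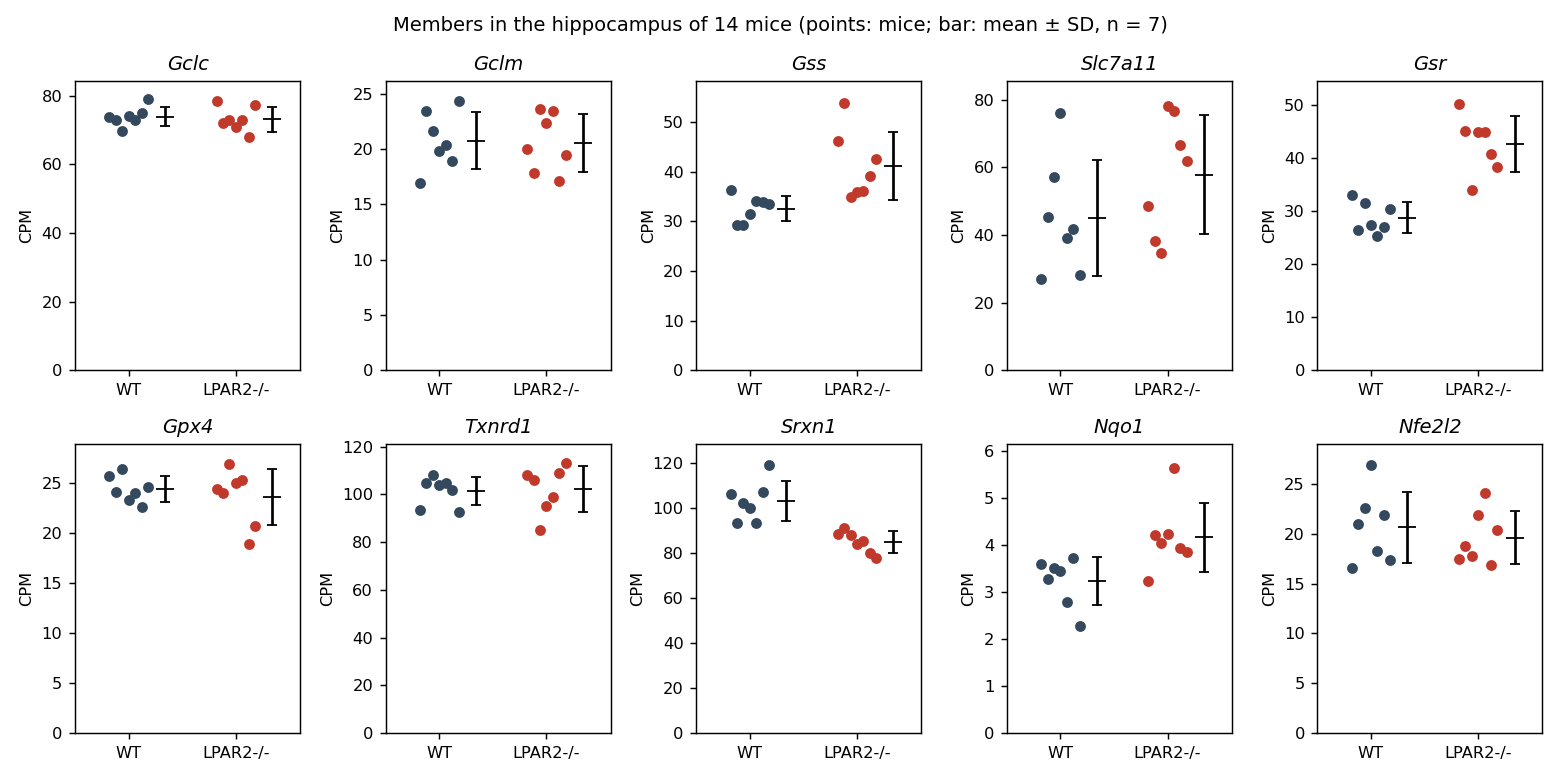
CPM of each of the 10 members in every mouse, 7 WT and 7 labelled LPAR2-/-, with the mean and SD of each group beside the points. All mice labelled LPAR2-/- lie above all WT mice for Gsr (from 34 CPM against at most 33) and below them for Srxn1 (at most 90.9 against at least 93.1).

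**Figure D2:**
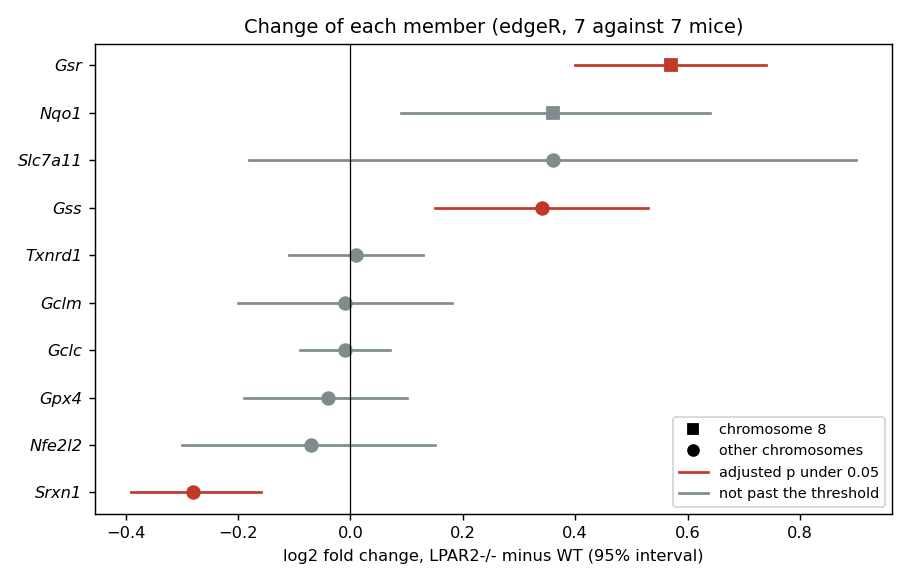
Log2 fold change of each member with its 95% interval from edgeR, 7 mice labelled LPAR2-/- against 7 WT, squares for chromosome 8 and circles for other chromosomes. The intervals of Gsr (0.40 to 0.74) and Gss (0.15 to 0.53) lie above 0 and that of Srxn1 (−0.39 to −0.16) below it. The interval of Nqo1 (0.09 to 0.64) also lies above 0, although it did not pass after adjustment, whereas Gclc is centred at −0.01 with the narrowest interval.

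Per kilobase of exon, the WT hippocampus contained Srxn1 RNA at the highest level of the 10 genes (36.6 ± 3.17 CPM per kb, SD, n = 7), followed by Txnrd1 (25.2 ± 1.49) and Gclc (21.6 ± 0.795). Gss (16.6 ± 1.33) and Gpx4 (15.9 ± 0.855) came next and were not apart, with Gss above Gpx4 in 5 of 7 WT mice. Gsr (10.7 ± 1.1), Gclm (10 ± 1.24) and Nfe2l2 (8.37 ± 1.45) formed a lower group with overlapping ranges. Slc7a11 (4.87 ± 1.85) overlapped Nfe2l2 in range but lay below it in 7 of 7 WT mice, and Nqo1 was lowest (2.08 ± 0.334), 17.6-fold under Srxn1. In the mice labelled LPAR2-/- the order was the same except that Gsr (15.9 ± 1.98 CPM per kb) stood above Gpx4 (15.4 ± 1.81).

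The enzyme of the first step of synthesis was at the same level in both groups within a narrow error. Gclc (chromosome 9, 77754535 to 77794489, mm10) ranged from 67.9 CPM (median 72.9) to 78.6 in mice labelled LPAR2-/- and from 69.9 (median 73.9) to 79 in WT. The groups overlapped over nearly their whole range. Its means were 73.2 ± 3.65 and 73.9 ± 2.72 CPM (SD, n = 7), a log2 fold change of −0.01 (SE 0.0377, 95% interval −0.09 to 0.07, adjusted p = 0.869 from edgeR), so that a change beyond 0.09 in either direction lies outside the interval. Mice of a genotype differed little in Gclc, with a within-group SD of 0.06 on the log2 scale, at percentile 7.44 of all genes tested.

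The modifier subunit Gclm (chromosome 3, 122245557 to 122267215) ranged from 17.1 CPM (median 20) to 23.6 in mice labelled LPAR2-/- and from 16.9 (median 20.4) to 24.3 in WT. Here too the groups overlapped. The log2 fold change was −0.01 with a wider interval (SE 0.09, −0.20 to 0.18, adjusted p = 0.97 from edgeR). The ratio of catalytic to modifier RNA per kilobase was 2.18 ± 0.277 in mice labelled LPAR2-/- and 2.18 ± 0.275 in WT (SD, n = 7, exact two-sided permutation test, p = 0.988).

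Glutathione synthetase was higher. Gss (chromosome 2, 155563181 to 155592810) had 46.1, 53.7, 34.9, 35.8, 36.1, 39 and 42.6 CPM in mice 1 to 7 labelled LPAR2-/-. The WT mice 1 to 7 had 36.2, 29.3, 29.3, 31.5, 34.1, 33.9 and 33.5 CPM. Of the 7 mice labelled LPAR2-/- 4 exceeded every WT mouse, with mice 2 and 1 farthest up, and 6 of 7 WT mice were below every mouse labelled LPAR2-/-. Mean levels were 41.2 ± 6.84 and 32.5 ± 2.6 CPM (SD, n = 7), a log2 fold change of 0.34 (SE 0.0896, adjusted p = 0.0333 from edgeR, exact two-sided permutation p = 0.00233). The call was close to the threshold. It was lost when mouse 1 or 7 labelled LPAR2-/- or WT mouse 2, 3, 4, 5 or 6 was left out, with log2 fold changes from 0.26 to 0.38 and adjusted p up to 0.0787 over the 14 such fits in edgeR.

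Slc7a11 encodes the transport subunit of the cystine/glutamate exchanger xc-, by which cells take up the cystine that limits glutathione synthesis. Its RNA (chromosome 3, 50364936 to 50443613) was 48.4, 38.3, 34.6, 78.1, 76.5, 66.6 and 61.9 CPM in mice 1 to 7 labelled LPAR2-/-. In WT mice 1 to 7 it was 27.1, 45.4, 57.1, 75.9, 39.2, 41.6 and 28.1 CPM. Both groups held low and high mice and overlapped widely. The means were 57.8 ± 17.6 and 44.9 ± 17.1 CPM (SD, n = 7), a log2 fold change of 0.36 that the spread between mice did not resolve (SE 0.25, 95% interval −0.18 to 0.90, adjusted p = 0.426 from edgeR). Slc7a11 was the most variable of the 10 genes between mice of a genotype, with a within-group SD of 0.50 on the log2 scale (percentile 95.3 of all genes tested) and a ratio of 2.89 between the highest and the lowest mouse.

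The level of Slc7a11 went with that of meningeal genes. This relation was examined after seeing the data, for 1 of 12 lists of cell types and regions. The p-values of the correlations do not allow for the choice of list. The summed level of 10 markers of meningeal fibroblasts (Dcn, Lum, Col1a1, Col1a2, Slc6a13, Slc13a3, Igf2, Igfbp2, Fmod and Ogn) was 328, 209, 124, 476, 548, 447 and 275 CPM in mice 1 to 7 labelled LPAR2-/-. In WT mice 1 to 7 it was 140, 202, 193, 401, 91.1, 163 and 124 CPM. The mean log2 level of the list was higher by 0.90 in mice labelled LPAR2-/- (exact two-sided permutation test, p = 0.0373, adjusted p = 0.224 over 12 lists of cell types and regions). Of its 10 genes 1 (Lum, higher) passed the test in edgeR, and each was counted in at least 1 library. With the genotype means removed, Slc7a11 correlated with the list over the 14 mice (Pearson's r = 0.85, permutation p = 0.00037, adjusted p = 0.0037 over 10 genes; Spearman's rho = 0.87, permutation p = 0.00034, adjusted p = 0.0034). Within the mice labelled LPAR2-/- r was 0.94 and within WT 0.77, and it was 0.75 without the mice farthest from the median (mouse 3 labelled LPAR2-/- and WT mouse 4). Nfe2l2 gave r = 0.69 (adjusted permutation p = 0.0432) and rho = 0.65 (adjusted permutation p = 0.0755), with r = 0.53 in mice labelled LPAR2-/- and 0.85 in WT, and 0.59 without the same mice. The other 8 members had r from −0.28 to 0.42, none past the threshold after adjustment. Without the same mice, that of Gss moved from −0.28 to −0.69.

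With the score of the meningeal list as a covariate, an alternative chosen after seeing the data, the log2 fold change of Slc7a11 turned to −0.18 (adjusted p = 0.588 from edgeR). Gsr was still higher in that fit (0.49, SE 0.0959, adjusted p = 0.0146). Gss (0.41, adjusted p = 0.0551) and Srxn1 (−0.25, adjusted p = 0.0531) kept their direction and missed the threshold in edgeR, in a fit that called 385 genes in all. Nfe2l2 moved to −0.26 (adjusted p = 0.162) and Nqo1 to 0.24 (adjusted p = 0.425).

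**Figure D3:**
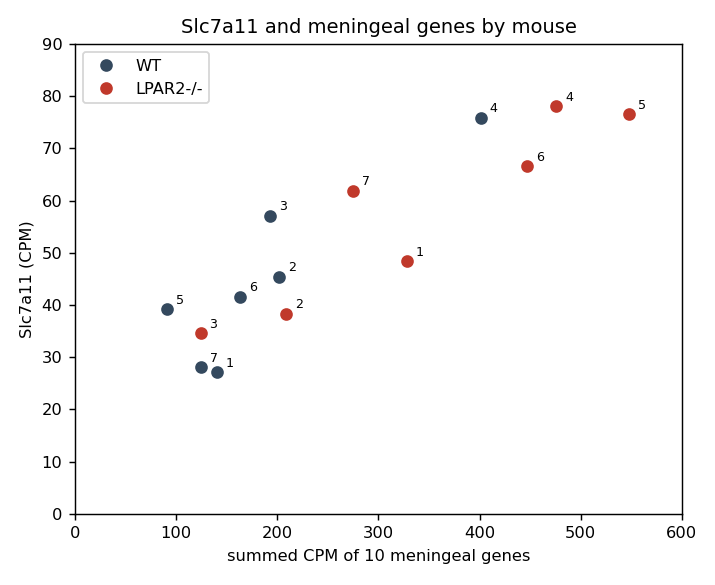
Slc7a11 (CPM, vertical axis) against the summed CPM of 10 meningeal genes (horizontal axis) in 14 mice, numbered within WT and LPAR2-/-. Slc7a11 goes with the meningeal genes in both groups, from mice near 27.1 CPM at the lower left to WT mouse 4 (75.9) and mouse 4 labelled LPAR2-/- (78.1) at the upper right.

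Glutathione reductase was the member with the largest change that passed the test. Gsr (chromosome 8, 33653238 to 33698162) had 50.1, 45, 34, 44.9, 44.9, 40.7 and 38.3 CPM in mice 1 to 7 labelled LPAR2-/-. The WT mice 1 to 7 had 33, 26.3, 31.5, 27.3, 25.3, 27 and 30.4 CPM. All mice labelled LPAR2-/- lay above all WT mice, although mouse 3 labelled LPAR2-/- and WT mouse 1 were close. The means were 42.5 ± 5.29 and 28.7 ± 2.93 CPM (SD, n = 7), a ratio of 1.48 and a log2 fold change of 0.57 (SE 0.081, 95% interval 0.40 to 0.74, adjusted p = 7e-04 from edgeR). The exact two-sided permutation test gave p = 0.000583, the smallest that 7 mice against 7 allow. Between 435 and 1043 reads per mouse stood behind these values, and Gsr passed the test with any single mouse left out (0.53 to 0.62, adjusted p up to 0.00267 in edgeR).

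The change of Gsr was also compared with that of each other member within mice, as a difference in log2 CPM, by exact two-sided permutation tests adjusted over the 9 pairs. Gsr rose by 0.58 more than Gclc (adjusted p = 0.00262), 0.62 more than Gpx4 (adjusted p = 0.00262) and 0.56 more than Txnrd1 (adjusted p = 0.00262) in these exact tests. Against Gclm the difference was 0.58 (adjusted exact p = 0.00612), against Nfe2l2 0.63 (adjusted exact p = 0.0042) and against Srxn1 0.84 (adjusted exact p = 0.00262). It was not resolved against Gss (0.24, adjusted exact p = 0.0562), Nqo1 (0.21, adjusted exact p = 0.233) or Slc7a11 (0.18, adjusted exact p = 0.596). Without mouse 2 or 7 labelled LPAR2-/- or WT mouse 3 the difference from Gss passed, with adjusted exact p between 0.0195 and 0.039, and without WT mouse 7 that from Nqo1 passed (0.30, adjusted exact p = 0.039).

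Gsr and Nqo1 lie on chromosome 8, as does Lpar2, at 36.2 Mb and 37.6 Mb from it on opposite sides. On chromosome 8, 15.7% of genes tested passed (122 of 775), against 6.28% on other chromosomes (887 of 14122). The share varied along it. Of the genes within 10 Mb of Gsr 14 of 76 passed (18.4%), 6 higher and 8 lower, compared with 40 of 154 (26%) round Lpar2 and 2 of 139 (1.44%) round Nqo1. These shares are given as a description, without a test. Round the 8 members on other chromosomes, windows that were added after seeing the data, the share was at most 11.6% (Gclc, 11 of 95), with 6.28% for Gss (13 of 207) and 5.71% for Srxn1 (10 of 175). The shares moved with the width of the window. Within 1 Mb they were 15.4% for Gsr (2 of 13), 16.7% for Gclc (2 of 12) and 14.3% for Txnrd1 (2 of 14). Within 5 Mb they were 23.3% for Gsr (7 of 30) and 20% for Gclc (9 of 45), and within 20 Mb 13.7% for Gsr (20 of 146) and 9.29% for Nqo1 (29 of 312). Within 1 Mb of Gsr the genes past the threshold besides Gsr itself were Wrn, a helicase of DNA repair (log2 fold change 0.26, SE 0.0652, adjusted p = 0.0263 in edgeR), and Tex15, a gene of the male germ line (0.53, SE 0.146, adjusted p = 0.0395). Carry-over of another background along chromosome 8 cannot be told apart from the genotype, and no sequence variants were analysed here.

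**Figure D4:**
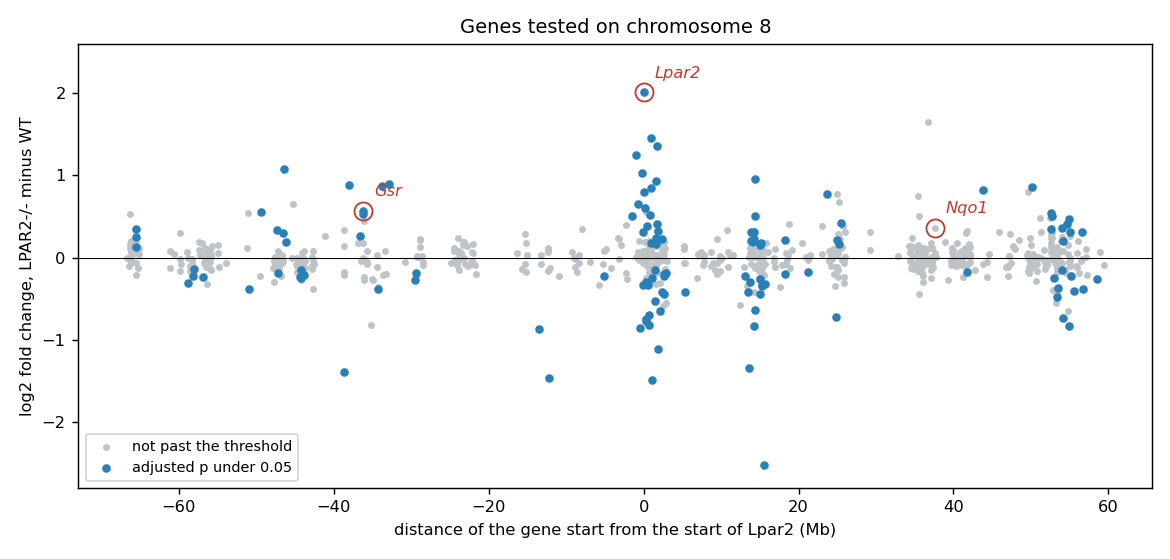
Log2 fold change of the 775 genes tested on chromosome 8 against the distance of their start from the start of Lpar2 in Mb, with genes at an adjusted p under 0.05 in blue. Blue points are dense round Lpar2 (2.01) and present round Gsr (0.57, at 36.2 Mb to the left), and nearly absent round Nqo1 (0.36, at 37.6 Mb to the right), which did not pass.

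Gpx4, the peroxidase that uses glutathione to reduce lipid peroxides in membranes, was not detectably different. It ranged from 18.9 CPM (median 24.4) to 26.9 in mice labelled LPAR2-/- and from 22.6 (median 24.1) to 26.4 in WT (chromosome 10, 80047166 to 80056439). The WT range lay inside the other. The log2 fold change was −0.04 (SE 0.0691, 95% interval −0.19 to 0.10, adjusted p = 0.756 from edgeR). The annotation also holds a Gpx4 pseudogene, Gpx4-ps2, and reads matching both would not have been counted.

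In the thioredoxin and peroxiredoxin branch, Txnrd1 did not pass and Srxn1 did. Txnrd1, the cytosolic thioredoxin reductase (chromosome 10, 82833951 to 82897724), ranged from 85.1 CPM (median 106) to 113 in mice labelled LPAR2-/- and from 92.8 (median 104) to 108 in WT. Its log2 fold change was 0.01 (SE 0.0581, 95% interval −0.11 to 0.13, adjusted p = 0.941 from edgeR). The interval of Txnrd1 overlaps that of Eid3. Reads in exons shared on the same strand, if there are any, would have been left out as ambiguous.

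Srxn1 fell. It encodes sulfiredoxin, which restores overoxidised peroxiredoxins, and is a well-known NRF2 target. Srxn1 (chromosome 2, 152105524 to 152111376) had 88.3, 90.9, 87.7, 84, 85.2, 79.8 and 77.6 CPM in mice 1 to 7 labelled LPAR2-/-. The WT mice 1 to 7 had 106, 93.2, 102, 99.6, 93.1, 107 and 119 CPM. All mice labelled LPAR2-/- lay below all WT mice, with mouse 2 labelled LPAR2-/- and WT mice 5 and 2 closest to the other group. The means were 84.8 ± 4.76 and 103 ± 8.92 CPM (SD, n = 7), a ratio of 0.825 and a log2 fold change of −0.28 (SE 0.0533, adjusted p = 0.00594 from edgeR, exact two-sided permutation p = 0.000583). It passed with any single mouse left out (−0.30 to −0.24, adjusted p up to 0.016 in edgeR). Srxn1 and Gss, which moved in opposite directions, lie 3.46 Mb apart on chromosome 2.

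Nqo1, a cytosolic quinone reductase and a standard readout of NRF2, was the member with the fewest reads, between 39 and 107 per mouse. It had 3.23, 4.2, 4.03, 4.22, 5.63, 3.94 and 3.84 CPM in mice 1 to 7 labelled LPAR2-/- (chromosome 8, 107388225 to 107403205). In WT mice 1 to 7 it had 3.59, 3.28, 3.5, 3.45, 2.79, 3.72 and 2.27 CPM. Of the 7 mice labelled LPAR2-/- 6 lay above every WT mouse, and mouse 1 labelled LPAR2-/- lay among them. The log2 fold change was 0.36 (SE 0.13, 95% interval 0.09 to 0.64), which did not pass after adjustment over all genes (p = 0.0128, adjusted p = 0.108 from edgeR, exact two-sided permutation p = 0.00874).

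Nfe2l2 itself, the gene of NRF2 (chromosome 2, 75675519 to 75704641), ranged from 16.9 CPM (median 18.8) to 24.1 in mice labelled LPAR2-/- and from 16.6 (median 21) to 26.9 in WT. The groups overlapped. The log2 fold change was −0.07 (SE 0.106, 95% interval −0.30 to 0.15, adjusted p = 0.742 from edgeR). NRF2 is controlled mainly through the stability of its protein, which was not measured.

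The remaining genes of these pathways were taken from 6 lists of 123 genes, of which 122 could be tested. Of these 5 were higher and 3 lower, 6.56% beside 6.77% of all genes, with a median log2 fold change of 0.02. Of 29 other NRF2 targets, 23 (79.3%) had values above 0 beside 51.1% of all genes tested (median 0.06), 11 (37.9%) had an unadjusted p under 0.05 beside 22.4%, and 2 passed as higher. These were Ephx1, the microsomal epoxide hydrolase (0.33, SE 0.095, adjusted p = 0.0451 in edgeR), and Aox1, an aldehyde oxidase (0.51, SE 0.144, adjusted p = 0.0457). Ptgr1, which reduces leukotriene and prostaglandin derivatives, was lower (−0.45, SE 0.132, adjusted p = 0.0489). Together these 3 genes were 10.3% of the list, beside 6.77% of all genes tested, and all were near the threshold. DESeq2 also called Abcc5 of this list, with a log2 fold change of −0.20 (adjusted p = 0.0599) in edgeR. In the 14 fits that each left out 1 mouse, Ephx1 passed only without mouse 6 or 7 labelled LPAR2-/- or WT mouse 1 or 7, Aox1 only without mouse 6 or 7 labelled LPAR2-/- or WT mouse 7, and Ptgr1 only without mouse 6 labelled LPAR2-/- or WT mouse 1 or 7, with adjusted p up to 0.102 over these fits in edgeR. The inducible heme oxygenase Hmox1, a classical target, had 5.8 ± 0.645 and 5.25 ± 0.534 CPM (SD, n = 7, adjusted p = 0.393 from edgeR). Hmox1 lies on chromosome 8, at 5.27 Mb from Lpar2.

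Among 18 genes that control NRF2, Keap1 had a log2 fold change of 0.04 (SE 0.0348, adjusted p = 0.544 in edgeR), and 1 gene passed (5.56%, beside 6.77% of all genes tested), Creb1, a transcription factor that shares coactivators with NRF2 (−0.26, SE 0.0664, adjusted p = 0.0291), a call lost without mouse 1, 2, 4 or 5 labelled LPAR2-/- or WT mouse 2, 4, 5 or 6 (adjusted p up to 0.071) and at 0.05 without WT mouse 3. Of these 18 genes 22.2% had values above 0, beside 51.1% of all genes tested (median −0.04). Of 14 genes of cysteine supply 1 passed in edgeR (7.14%, beside 6.77% of all genes tested). This was Cbs, the first enzyme from homocysteine towards cysteine, which was lower, at 32 ± 4.38 against 40.4 ± 4.26 CPM (SD, n = 7, log2 fold change −0.33, adjusted p = 0.0303 from edgeR). Cbs lies on chromosome 17 (31612623 to 31637205). The call of Cbs was lost without mouse 1, 5 or 6 labelled LPAR2-/- or WT mouse 3, 4, 6 or 7, with adjusted p up to 0.0656, and with the meningeal score as covariate (−0.35, adjusted p = 0.096). DESeq2 also called Shmt1 and Cdo1 of this list, with log2 fold changes of 0.28 (adjusted p = 0.0604) and 0.32 (adjusted p = 0.0534) in edgeR. None of 20 genes of the thioredoxin and peroxiredoxin system passed in edgeR, where 4 (20%) had an unadjusted p under 0.05 beside 22.4% of all genes tested, and DESeq2 called 1 of them (Prdx4, log2 fold change 0.29 and adjusted p = 0.0544 in edgeR).

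Gsr and Txnrd1 consume NADPH, which comes from several dehydrogenases. In a list of 13 genes of NADPH supply 2 mitochondrial enzymes rose (15.4%, beside 3.32% of all genes tested). Further NADPH sources, counted above among the other NRF2 targets, did not pass in edgeR. These were G6pdx (log2 fold change 0.00, adjusted p = 0.987), Pgd (0.10, 0.2), Me1 (−0.15, 0.659) and Idh1 (0.01, 0.979). NADPH itself was not measured. Me3, the mitochondrial NADP-dependent malic enzyme, ranged from 67.8 to 85.5 CPM in mice labelled LPAR2-/- and from 49.7 to 63.6 in WT, without overlap (log2 fold change 0.46, SE 0.0591, adjusted p = 0.000326 from edgeR). Idh2, the mitochondrial NADP-dependent isocitrate dehydrogenase, had 44.3 ± 6.04 and 34.9 ± 2.38 CPM (SD, n = 7, log2 fold change 0.35, SE 0.0753, adjusted p = 0.0129 from edgeR). Both passed with any single mouse left out, but Idh2 did not with the meningeal score as covariate (0.32, adjusted p = 0.0805 in edgeR). Me3 and Idh2 both lie on chromosome 7, with starts at 89632818 and 80094847. Nnt, the mitochondrial transhydrogenase of which C57BL/6J mice lack some exons, was counted in every mouse, with 33.4 to 47.9 CPM in mice labelled LPAR2-/- and 28.4 to 52.3 in WT (log2 fold change −0.18, adjusted p = 0.385 from edgeR). Without WT mouse 1 Nnt passed as lower (−0.27, adjusted p = 0.0467 in edgeR). Counts per gene do not tell whether the transcript was intact.

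Of 28 genes of glutathione use and turnover 1 passed (3.57%, beside 6.77% of all genes tested), Glo1, the glyoxalase that uses glutathione to detoxify methylglyoxal (chromosome 17, 30592862 to 30612659). The WT mice were within 64.5 to 70.1 CPM. Mice 1 to 7 labelled LPAR2-/- had 200, 218, 134, 69.5, 134, 144 and 68.2 CPM, or 2.95, 3.21, 1.97, 1.02, 1.97, 2.12 and 1.01 times the WT mean. Mice 4 and 7 were thus at the WT level and the other 5 well above it. The mean was 138 ± 57.5 CPM against 67.8 ± 1.86 in WT (SD, n = 7, log2 fold change 1.03, SE 0.231, adjusted p = 0.02 from edgeR, and 1.13 with adjusted p = 0.0525 with the meningeal score as covariate). The neighbours Btbd9 and Dnah8, singled out after their values were seen, followed the same mice. Dnah8 was 6.86, 6.32, 3.99, 1.12, 4.03, 5.12 and 0.665 times its WT mean in mice 1 to 7 labelled LPAR2-/- (log2 fold change 2.00, adjusted p = 0.0144 from edgeR), and Btbd9 1.61, 1.6, 1.2, 1.05, 1.17, 1.38 and 1.04 times (0.37, adjusted p = 0.028). The call of Btbd9 was lost without mouse 1 or 6 labelled LPAR2-/- or WT mouse 2, 3, 4 or 5 (adjusted p up to 0.0614 in edgeR). Duplications of this region are known among laboratory mouse strains. Genomic copy number was not measured in these mice, and its part in these values was not tested. Gsr did not follow this division, since mice 4 and 7 labelled LPAR2-/- had 44.9 and 38.3 CPM, above every WT mouse. Cbs, the gene of cysteine supply that was lower, also lies on chromosome 17, with its start at 31612623. It had 27.8, 25.3, 36, 36.4, 31.2, 31.4 and 36 CPM in mice 1 to 7 labelled LPAR2-/-. In WT it ranged from 34.5 to 46.5 CPM. Its lowest values were in mice 1 and 2, the highest for Glo1, and this relation was not tested.

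**Figure D5:**
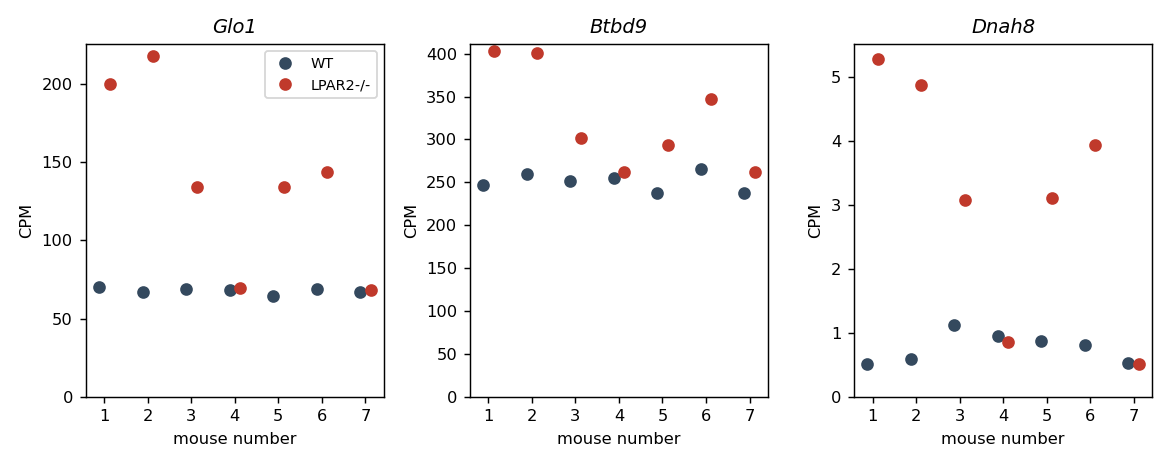
CPM of Glo1, Btbd9 and Dnah8 in each mouse by mouse number, WT and LPAR2-/- side by side (mice of the same number were not treated as pairs). Mice 4 and 7 labelled LPAR2-/- stand at the WT level for Glo1 (69.5 and 68.2 CPM) and the other 5 stand between 134 and 218.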

How the data were processed

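The authors sequenced hippocampal RNA, depleted of ribosomal RNA, from 7 mice labelled LPAR2-/- and 7 WT mice. Per the methods and the labels, the authors used cutadapt 1.18 for trimming, STAR for alignment (mm10) and featureCounts 1.6.3 for counting by gene over exons, reverse stranded, so that reads with several matching genes or positions were dropped. The deposited values used here are these raw counts, without normalization. A deposited table of values normalized with DESeq2 1.22.2 was not used. Reads of near-identical copies are therefore missing rather than shared out.

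Counts were analysed in R 4.3.3 with edgeR 4.0.16 (filterByExpr, TMM, robust quasi-likelihood F test, Benjamini-Hochberg adjustment over 14897 genes, threshold 0.05), limma 3.58.1 and DESeq2 1.42.0. CPM values use TMM library sizes, and log2 values a prior count of 2. Single values were tested by two-sided exact permutation over 3432 arrangements of 7 mice against 7, and correlations by 1e+05 permutations. Groups came from the labels. The replicates are separate mice. The procedure was tested on simulated data. Within groups, all 42 pairs of libraries differed beyond sampling noise (chi-square at least 3.41 per degree of freedom).

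Named are all 10 members, Lpar2, Nnt, genes past the threshold in the pathway lists (up to 8 a list) and those within 1 Mb of Gsr or Nqo1 (up to 6 each). Keap1, Hmox1, Abcc5, G6pdx, Pgd, Me1, Idh1, Prdx4, Shmt1, Cdo1, Btbd9, Dnah8 and Myh7b fall outside this rule and were named after their values were seen. Members and lists, including those of cell types, were chosen with earlier results of these data known. Gene positions are those of the count table, counted from 1. Upstream sequence is from RefSeq (GRCm38.p6). Alternatives were DESeq2, DESeq2 size factors or the upper quartile, omission of the filter or a minimum of 10 counts in each library, windows of 5 and 20 Mb, a block for the mouse number and each mouse left out.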

Additional observations from a re-analysis of the deposited data

Results flagged for a closer look

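In the mice labelled LPAR2-/-, Nqo1 of mouse 5 stood apart from the other 6 at 5.63 CPM, with the nearest mouse at 4.22 and the gap making up 0.587 of the range of the group (past the 95% critical value of Dixon's test for 7 samples). Without this mouse the log2 fold change of Nqo1 was 0.28. In WT, Me3 of mouse 1 stood apart at 63.6 CPM, with the nearest mouse at 54.4 and a gap of 0.66 of the range, and it was still below every mouse labelled LPAR2-/-. These were 2 of 46 groups examined, and chance alone sets apart about 1 group in 20.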

How the results depend on the processing

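Gsr and Srxn1 passed under every alternative named with the processing, and Gss under each except the replicate block and 7 of the 14 fits that left out a mouse. Deviations of mice of the same number correlated from −0.33 to 0.31 (3 of 7 over 0.1, 3 of 7 best with their own number). The main fit did not treat the numbers as pairs, and these values do not decide whether mice of the same number shared a batch. With the mouse number as a block, 1 member was higher (Gss 0.33, adjusted p = 0.0539 in edgeR), 314 genes were higher and 272 lower, 3 other pathway genes were higher and 1 lower, and 8 genes near Gsr passed. Calls missed there were Glo1 (0.92, adjusted p = 0.0682), Aox1 (0.48, 0.0779), Ephx1 (0.33, 0.12), Ptgr1 (−0.46, 0.0529), Creb1 (−0.26, 0.0637) and Myh7b (0.76, 0.0625). Ptgr1 was also missed with the upper quartile (0.0559), and Aox1 (0.0528), Ptgr1 (0.0525) and Myh7b (0.0706) without the filter. Without mice 6 and 7 labelled LPAR2-/-, 1 member was higher. With the meningeal score as covariate, added after seeing the data, 1 member was higher and 0 lower in edgeR, 183 genes were higher and 202 lower, 1 other pathway gene was higher and 1 lower, and 7 genes near Gsr passed. Calls missed in that fit were those of the members Gss and Srxn1, as given above. Further calls missed there were Glo1 (1.13, adjusted p = 0.0525), Idh2 (0.32, 0.0805), Cbs (−0.35, 0.096), Ephx1 (0.32, 0.158), Aox1 (0.58, 0.0815), Ptgr1 (−0.54, 0.0774), Btbd9 (0.39, 0.0908) and Myh7b (1.02, 0.0538). The pathway genes higher were 8 in DESeq2 and 9 with the upper quartile, which put 62% of calls on the higher side against 49%. Within 5 Mb of Gsr 7 genes passed. DESeq2 called 1393 genes in all, against 1009. With single mice left out, members higher were 1 to 2 and lower 1 to 1, genes higher 275 to 660 and lower 292 to 725 (fewest without WT mouse 2, most without WT mouse 1), other pathway genes higher 3 to 11 and lower 0 to 6, genes near Gsr 9 to 17, Gsr 0.53 to 0.62, and members from which Gsr differed 6 to 7. No result that passed changed direction under these settings. Nqo1 had the fewest reads of the members, 39 to 107 per mouse. The causes of these shifts were not tested.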

Other observations

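Close to Gss on chromosome 2, at 18.4 kb from it, lies Myh7b, a myosin heavy chain gene that was singled out after its values were seen. It had 14.6 ± 5.26 CPM in mice labelled LPAR2-/- and 8.48 ± 2.31 in WT (SD, n = 7), a log2 fold change of 0.78 (SE 0.22, adjusted p = 0.0462 from edgeR), and it missed the threshold in 9 of 14 fits that left out a mouse. Among the lists of brain regions, markers of the striatum had a mean log2 level higher by 0.30 in mice labelled LPAR2-/- (exact two-sided permutation test, p = 0.00583, adjusted p = 0.07 over 12 lists), with no gene of the list past the threshold in edgeR. The range of their sums was 102 to 121 CPM in mice labelled LPAR2-/- and 105 to 130 in WT.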
